A study of Mus musculus with 4 samples.

Results

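The genes described here make, desaturate and take up sterols and fatty acids, and 36 of them were chosen by name, with earlier results of these data known. They were found on the arrays by the RefSeq accession printed beside each probe. Of the 36, 35 had at least 1 probe, 57 probes in all, and 34 were tested among the 19338 genes of the whole array. Of those 19338, 12811 had a gene name, and each accession without a match was counted as a gene of its own. Shares of all genes below include these unnamed entries. No probe was matched to Idi1, and Acacb was not well above background on any array. Measurements came from Tc-inducible FBL-kd mouse embryonic stem cells, in which FBL, fibrillarin, the nucleolar enzyme that methylates ribosomal RNA, is expressed with tetracycline (Tc) and knocked down without it. The 2 control samples were cultured with Tc (1000 ng/mL) and the 2 knock-down samples without it, for 2 days, all on gelatin with leukaemia inhibitory factor (LIF). Tc and FBL thus changed together, and in these samples an effect of Tc itself and one of FBL loss cannot be told apart. The promoter behind the inducible construct, the number of clones and whether the samples of a group were separate cultures are not given in the sources used here, so p-values speak of the scatter among these samples alone, and that scatter may be technical.

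Cells build cholesterol from acetyl-CoA through mevalonate and squalene, and fatty acids from acetyl-CoA through malonyl-CoA. Both routes are controlled by the transcription factors SREBP1 and SREBP2, encoded by Srebf1 and Srebf2. SCAP carries the SREBP precursors from the endoplasmic reticulum to the Golgi, where they are cut and released to the nucleus, and INSIG proteins hold SCAP back when sterols are plentiful. Embryonic stem cells divide fast and need both lipid classes for new membranes.

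Promoter windows of 5 members are shown first, because they belong to genes on which the results turn and to a textbook SREBP target. They were taken from RefSeq (GRCm38.p6) and run 5′ to 3′ from 250 bases before to 50 bases after a gene start. Windows were available for 29 of the 36 members, 39 windows in all. Scd1, whose fall is reported below, had no window. The window of Hmgcs1 (chr13:119690101-119690400, + strand), the HMG-CoA synthase gene, carries the sterol regulatory letters TCACNCCAC in capitals. That of Vldlr (chr19:27216770-27217069, + strand), the gene with the largest change, carries in capitals, on the other strand, the C/EBP-ATF letters TGATGNAA. A second Vldlr window, upstream of this one, holds none of these letters. That of Me1 (chr9:86695865-86696164, - strand) carries the antioxidant-element letters TGACNNNGC in capitals, which a second Me1 window lacks. In the window of Scap (chr9:110333106-110333405, + strand) the capitals mark the SP-family letters GGGCGG, and in that of Msmo1 (chr8:64733529-64733828, - strand), the sterol enzyme with the largest decrease, the NF-Y letters CCAAT. Only 1 motif is marked in each window. Left in lower case, on either strand, are CCAAT and GGGCGG in the windows shown of Hmgcs1 and Vldlr, and GGGCGG in those of Me1 and Msmo1.
Hmgcs1: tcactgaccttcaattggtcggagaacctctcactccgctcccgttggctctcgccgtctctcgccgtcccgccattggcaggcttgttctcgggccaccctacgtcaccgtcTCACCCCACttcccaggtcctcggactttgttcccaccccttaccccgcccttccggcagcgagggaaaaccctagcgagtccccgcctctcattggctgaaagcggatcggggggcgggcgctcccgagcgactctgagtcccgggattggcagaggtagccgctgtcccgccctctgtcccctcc
Vldlr: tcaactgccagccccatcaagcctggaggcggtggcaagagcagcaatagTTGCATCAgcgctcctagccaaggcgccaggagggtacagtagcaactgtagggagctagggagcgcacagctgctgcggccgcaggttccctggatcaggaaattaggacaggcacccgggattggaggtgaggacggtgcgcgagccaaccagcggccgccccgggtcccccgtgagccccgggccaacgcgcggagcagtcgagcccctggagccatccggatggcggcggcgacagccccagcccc
Me1: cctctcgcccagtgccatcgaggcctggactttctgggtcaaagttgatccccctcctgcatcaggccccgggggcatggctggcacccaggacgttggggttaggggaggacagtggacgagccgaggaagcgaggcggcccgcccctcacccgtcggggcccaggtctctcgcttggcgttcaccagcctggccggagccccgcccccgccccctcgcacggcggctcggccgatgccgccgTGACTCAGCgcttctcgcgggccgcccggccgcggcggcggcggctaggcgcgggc
Scap: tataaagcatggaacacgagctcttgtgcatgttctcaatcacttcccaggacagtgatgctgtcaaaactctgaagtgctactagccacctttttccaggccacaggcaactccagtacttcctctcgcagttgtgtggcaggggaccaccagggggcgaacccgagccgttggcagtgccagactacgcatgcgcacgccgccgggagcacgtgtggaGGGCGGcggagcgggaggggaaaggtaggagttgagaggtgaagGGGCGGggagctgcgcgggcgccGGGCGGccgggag
Msmo1: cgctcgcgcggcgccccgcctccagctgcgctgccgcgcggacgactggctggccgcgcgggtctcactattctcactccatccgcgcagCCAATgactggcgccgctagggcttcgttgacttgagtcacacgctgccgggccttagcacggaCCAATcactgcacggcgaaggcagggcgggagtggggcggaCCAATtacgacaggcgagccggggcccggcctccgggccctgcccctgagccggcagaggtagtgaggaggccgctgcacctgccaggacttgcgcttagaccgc

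Both strands were searched, and the motifs were counted separately even where they overlap. CCAAT stood in 26 of 39 member windows (66.7%), against 37.4% of all 32851 windows of the same length, and GGGCGG in 27 (69.2%) against 35.7%. NF-Y and SP proteins are known partners of SREBPs at promoters, and of many other factors. Why these 2 shares are higher was not tested, and windows of other expressed genes were not counted apart. The sterol regulatory letters were in 1 member window (2.56%, against 1.24% of all), TGATGNAA in 4 (10.3% against 3.97%) and TGACNNNGC in 6 (15.4% against 12.4%). The windows shown were chosen because they hold a match. A match describes letters in a window and is not a measured binding site.

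The knock-down was seen in Fbl itself, whose level was 8.63 and 8.12 on the arrays with Tc (replicates 1 and 2, an order kept below) and 5.98 and 5.94 without it. Levels throughout are log2 signals from which the array's 75th percentile was subtracted, so that 0 is that percentile. The fall of Fbl was 5.34-fold, or −2.42 ± 0.25 on the log2 scale (± SE throughout, 2 samples in each group), with a limma adjusted p of 5.01e-04. Both controls and knock-down 1 lay on 1 slide and knock-down 2 on another, and that percentile stood at a processed signal of 501 to 801. The embryonic stem cell markers fixed for the label, 10 of 10 tested, had no call as processed. Their summed linear level relative to the 75th percentile spanned 885 to 1081 in the controls and 893 to 1167 in the knock-down samples. Such a sum is weighted toward bright genes, here Dppa5a first. Of these 10 markers 6 were lower, with a median of −0.20 and a range of −0.83 to 0.29. Under normexp, with trend, with trend and robust, and with all 4 arrays required above background, 1 of them was called lower. Fibroblast markers summed to 25.2 to 27.8 in the controls and 17.1 to 18.6 in the knock-down samples, with 6 of 10 tested and Lum, Dcn, Postn and Col3a1 not above background. Their brightest, Vim (−0.56), and Thy1 (−0.76) were lower without a call, whereas the other 4 were higher without a call and the median over the 6 was 0.19. Primitive endoderm markers summed to 20.5 to 22.8 and 17.8 to 18.8, with 9 of 10 tested, Lama1 (−1.01) and Sox7 (−2.16) fallen and Pdgfra not above background; trophectoderm markers to 20.8 to 26.4 and 30.8 to 33.9, with 10 of 10 tested, and Krt7 risen (1.63). Elf5, above background on 1 of 2 knock-down arrays, was called lower as processed; under normexp it turned (0.12), and its call also ended with quantile normalization (adjusted p = 0.0788), within slide 1 (0.384), without control 1 (0.0754) and without control 2 (0.119). Under normexp the call of Sox7 (−0.21) ended too, and within slide 1 that of Lama1 (adjusted p = 0.434). The part of these marker sums in the results below was not tested, and in these bulk samples fewer cells of a type and less RNA per cell cannot be told apart.

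Of the 34 lipid genes tested, 1 rose and 3 fell. Scap, the SREBP escort, rose 2.05-fold, Vldlr, the very low density lipoprotein receptor, fell by a size that depended on the background treatment (13.8-fold as processed, 2.23-fold under normexp), Me1, the cytosolic malic enzyme that makes NADPH, fell 2.10-fold, and Scd1, the stearoyl-CoA desaturase, fell 1.87-fold. In either direction 6.40% of all genes passed. The share of lipid genes that rose was 2.94%, where 3.82% of all genes did, and the share that fell was 8.82%, where 2.58% of all genes did. Because the genes were chosen with earlier results of these data known, these shares are a description and not a test. Of the 3 falls, Vldlr entered the test only because both controls, where it was high, were above background. With all 4 arrays required above background, Vldlr was not tested. Then 2 of 33 lipid genes fell, against 570 of all 17971 genes. The lipid genes had a median log2 change of −0.22, against −0.06 over all genes tested, and 25 of 34 were lower in the knock-down, against 56.2% of all genes. That count was 21 with the 75th percentile taken over bright probes (those above background on every array) and 19 without control 1. The median over all genes also moved there, to −0.0052 and 0.0034, and the share of all genes that were lower was not counted in these settings. Both knock-down values lay on 1 side of both control values in 20 of 34 genes (58.8%), near the 51.1% of all genes, and 15 of the 34 (44.1%) were apart and lower, against 30.6% of all genes. The 30 genes without a call ranged from −0.71 to 0.66 on the log2 scale.

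**Figure D1:**
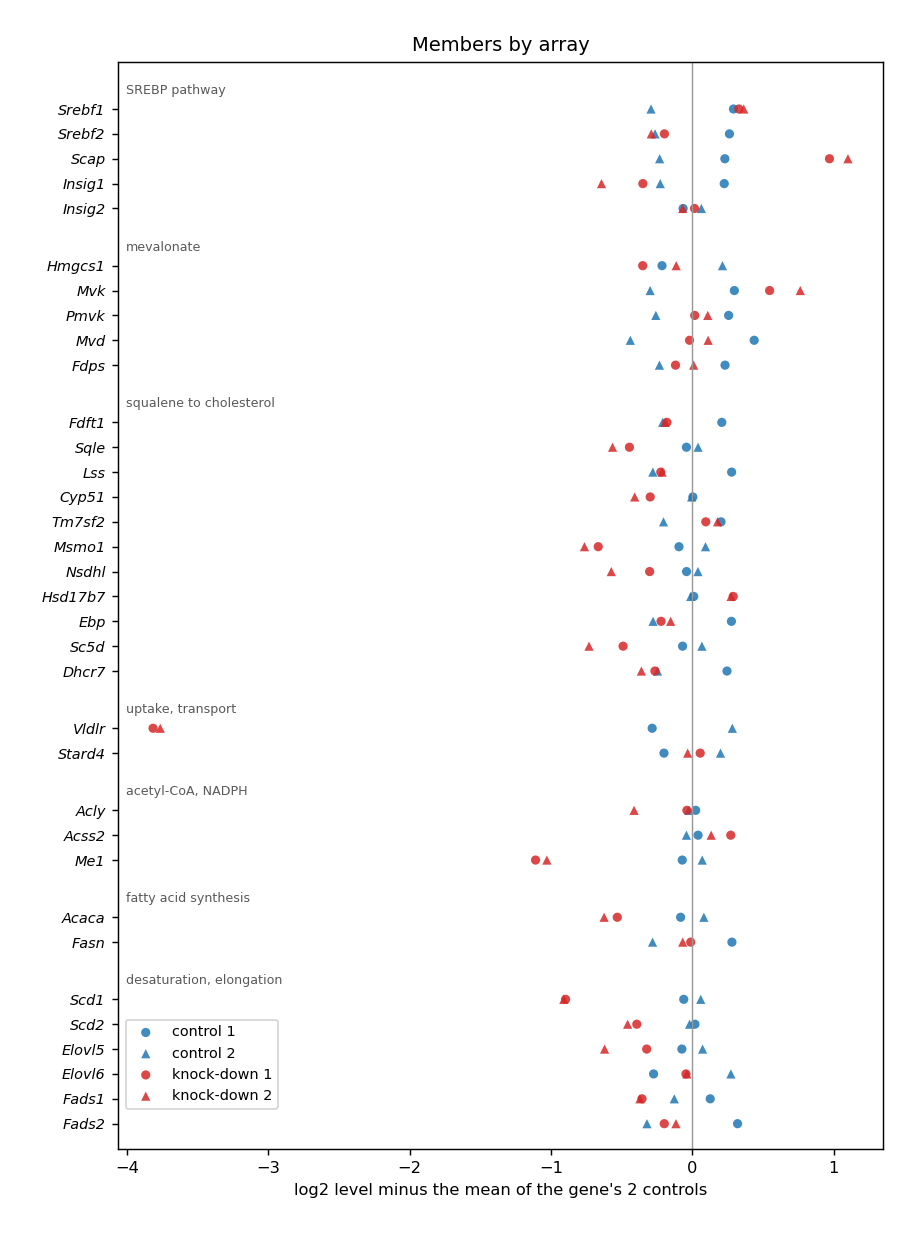
Level of each of the 34 tested members on each array (x axis, log2, minus the mean of that gene's 2 controls), with members grouped by role (y axis), controls in blue and knock-down samples in red. Vldlr lies far left in both knock-down samples, Scap far right, and the 2 controls lie further apart than the 2 knock-down samples for genes such as Mvd, Fads2 and Ebp.

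Among the regulators, Scap had levels of 4.60 and 4.14 with Tc and 5.34 and 5.47 without it. Both knock-down values stood above both controls, and Scap rose by 1.04 ± 0.25 on the log2 scale (limma adjusted p = 0.0357). The other 4 regulators did not pass. Insig1, which encodes a sterol-sensing retention protein and is itself an SREBP target, had levels of −1.92 and −2.37 with Tc and −2.49 and −2.79 without it. Its groups did not overlap, and its change was −0.50 ± 0.25 (95% interval −1.06 to 0.07, limma adjusted p = 0.316), with −0.30 at its other probe. The sister gene Insig2 had a change of −0.03 at its brightest probe and 0.49 at the other. Srebf1 had a change of 0.35 (95% interval −0.23 to 0.92) and Srebf2 one of −0.24 (95% interval −0.81 to 0.32).

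Of the 5 mevalonate enzymes tested none passed the adjusted threshold, and 1, Mvk, had an unadjusted p under 0.05, as 20.1% of all genes did. Mevalonate kinase, encoded by Mvk, had levels of 0.97 and 0.38 with Tc and 1.22 and 1.44 without it. Both knock-down values were the higher ones, and the change was 0.66 ± 0.26 (limma adjusted p = 0.197), with 0.53 at its other probe and a range of 0.36 without control 2 to 0.95 without control 1. Pmvk, the next kinase, had levels of 4.93 and 4.41 in the controls with the knock-down samples between them at 4.69 and 4.78. Hmgcs1, whose promoter window holds the sterol regulatory letters, had a change of −0.23 at its brightest probe and −0.22 at the other (95% interval at the first −0.79 to 0.32). Mvd, the decarboxylase that yields isopentenyl diphosphate, and Fdps, the farnesyl diphosphate synthase, had changes of 0.05 and −0.05.

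From squalene to cholesterol 9 of 11 enzymes were lower, none passed, and the median was −0.31. Without control 1 the median was −0.066 and 6 of 11 were lower, and without control 2 it was −0.46. An unadjusted p under 0.05 was found for 3 of the 11, where 20.1% of all genes had one. The lowest were Msmo1, Sc5d and Sqle. Msmo1, which removes the sterol 4-methyl groups, had levels of 3.73 and 3.92 with Tc and 3.16 and 3.06 without it. Its groups stood clear of each other, and the change was −0.71 ± 0.23 (95% interval −1.22 to −0.21, limma adjusted p = 0.105). It was called by 4 of the 16 other ways of processing: under normexp (adjusted p = 0.0307), with trend (0.0354), with trend and robust (0.0164) and without control 1 (0.0291). Sc5d, the sterol C5-desaturase, had levels of 1.06 and 1.19 against 0.64 and 0.39, and its change was −0.61 ± 0.23 (limma adjusted p = 0.170, and 0.0494 under normexp). Sqle, the squalene epoxidase and a rate-limiting step of the pathway, had levels of 3.23 and 3.31 against 2.83 and 2.71, and its change was −0.50 ± 0.22 (limma adjusted p = 0.247). For both enzymes the knock-down samples lay below both controls. Cyp51, the lanosterol demethylase, was lower at all 3 probes (−0.35, −0.36 and −0.31), as was Nsdhl, a sterol dehydrogenase (−0.44, −0.35 and −0.21), without a call. Ebp, the sterol isomerase, had levels of 6.57 and 6.02 with Tc and 6.07 and 6.14 without it, which lay between the controls. Fdft1 (squalene synthase, −0.19), Lss (lanosterol synthase, −0.22) and Tm7sf2 (a sterol reductase, 0.14) also had overlapping groups. Dhcr7, which makes cholesterol in the last step of one branch, had a change of −0.31, and Hsd17b7, a sterol ketoreductase, one of 0.28 at its brightest probe and −0.01 at the other.

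**Figure D2:**
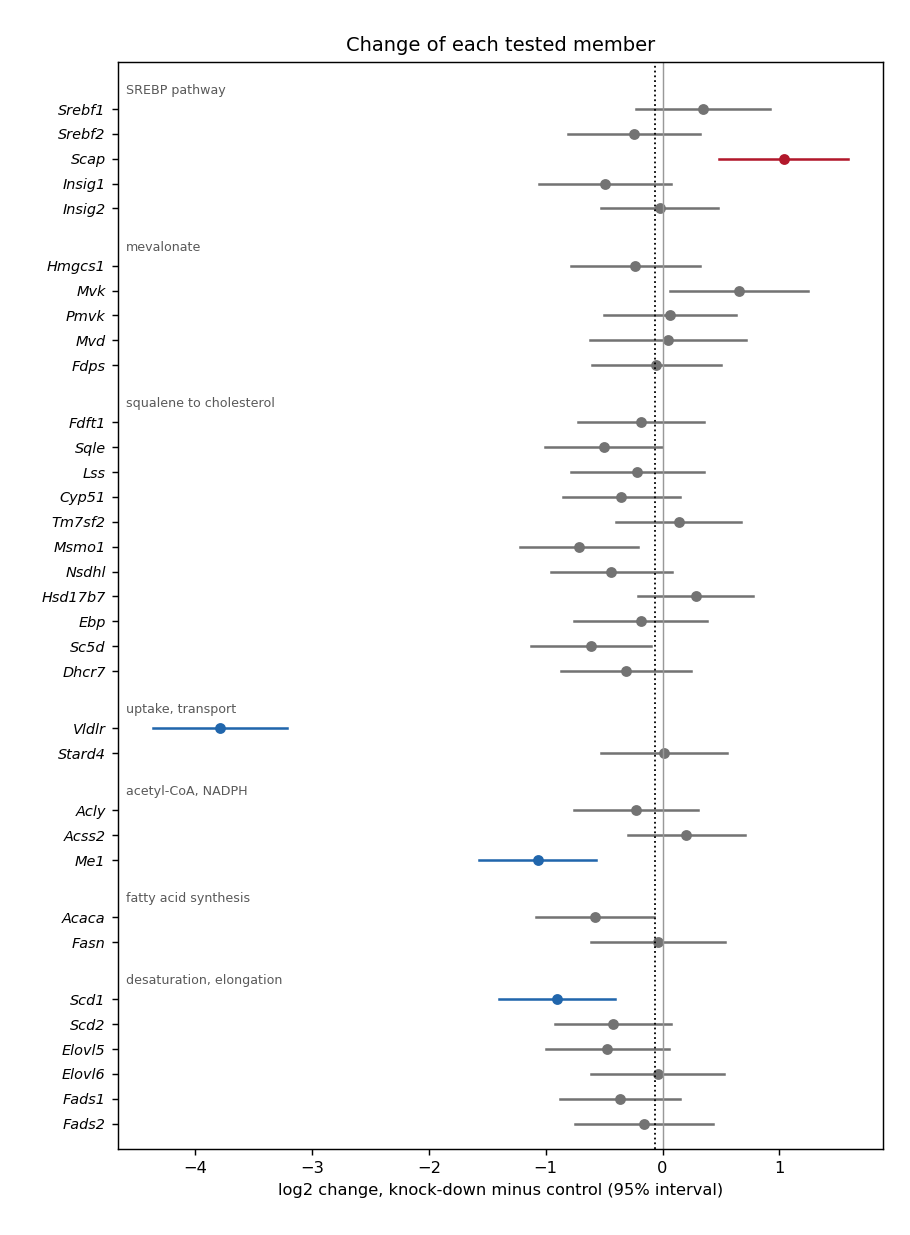
Log2 change, knock-down minus control, of the 34 tested members (points) with the 95% interval of the limma fit (lines), by role; blue fell, red rose, grey did not pass, and the dotted line is the median of all genes (−0.06). Vldlr lies apart at −3.79, a size limited by background (−1.16 under normexp), and the 16 sterol enzymes from Hmgcs1 to Dhcr7 spread from −0.71 to 0.66.

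Vldlr had the largest change of the set. The receptor takes up triglyceride-rich lipoproteins, is also a reelin receptor, and its gene is known to be induced under endoplasmic reticulum stress through ATF4. Its level was −2.21 and −1.65 with Tc and −5.75 and −5.70 without it, so that the groups stood far apart. Vldlr fell (log2 change −3.79 ± 0.26, limma adjusted p = 1.57e-04), but the size of this fall is limited by background. The processed signal was 120 and 256 with Tc and 11.8 and 9.68 without it, where the dimmest probes well above background had 8.57 and 11.0, and Vldlr was well above background on knock-down 1 and not on knock-down 2. With 1 of 2 knock-down arrays above background, the direction is measured better than the size. Under normexp, which adds an offset of 50 to each signal, the change was −1.16 and still passed (limma adjusted p = 7.23e-05). Vldlr was read by 1 probe, as were the other called members, Scap, Me1 and Scd1, so no call was checked at another probe. Stard4, which carries cholesterol between membranes, had levels of −0.15 and 0.25 with Tc and 0.10 and 0.01 without it at its brightest probe (change 0.01 ± 0.24). Its other 2 probes disagreed with the first, at −0.72 (limma adjusted p = 0.0974 over all probes) and −0.64 (0.138), each with both knock-down samples below both controls.

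Of the enzymes that supply acetyl-CoA and NADPH, Me1 fell. Its levels were −1.11 and −0.97 with Tc and −2.15 and −2.07 without it, with the groups apart, and its change was −1.07 ± 0.23 (limma adjusted p = 0.0201). Acly, the ATP citrate lyase that exports acetyl units to the cytosol, had levels of 2.33 and 2.28 with Tc and 2.27 and 1.90 without it. Knock-down 1 lay close to the controls, and the change of Acly was −0.22 (limma adjusted p = 0.677). Acss2, the acetyl-CoA synthetase, had a change of 0.20, and of 0.19 at its other probe.

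Fatty acid synthase itself, Fasn, had levels of 7.66 and 7.10 with Tc and 7.37 and 7.31 without it, which lay between the controls. Its change was −0.04 ± 0.26 (95% interval −0.61 to 0.53), and 0.46 at its other probe, where the knock-down samples were above both controls. The acetyl-CoA carboxylase gene Acaca, the committed step before it, had levels of −0.11 and 0.05 against −0.56 and −0.66. Its groups did not overlap, its change was −0.58 ± 0.23 (limma adjusted p = 0.186), and its other 2 tested probes stood at −0.04 and −0.11. Those 2 probes were dim, with processed signals of 17.5 to 35.4, against 318 to 830 at the brightest probe. The mitochondrial form Acacb had processed signals of 5.37 to 11.0 over the 4 arrays, none of them well above background.

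All 6 desaturases and elongases had negative changes as processed, where 56.2% of all genes did. Their median was −0.39, and 1 fell. The sign of Elovl6, the elongase of palmitate (−0.04), turned under normexp (0.016) and with the percentile over bright probes (0.014). It also turned without control 2 (0.23), and that of Fads2 turned without control 1 (0.16). Scd1, which places the first double bond in saturated fatty acids, had levels of −0.37 and −0.25 with Tc and −1.20 and −1.22 without it. The groups were well apart, and Scd1 fell by log2 −0.90 ± 0.22 (limma adjusted p = 0.0424), close to the smallest change called over all genes, 0.87. Its paralog Scd2 had levels of 4.73 and 4.69 against 4.32 and 4.26, with the groups apart and a change of −0.42 ± 0.22 (95% interval −0.92 to 0.07, limma adjusted p = 0.330). The intervals of Scd1 (−1.40 to −0.40) and Scd2 overlap, and binding of one paralog's RNA by the probe of the other was not tested. Elovl5, an elongase of polyunsaturated fatty acids, had a change of −0.47 and −0.28 at its other probe, and the desaturases Fads1 and Fads2 had −0.36 and −0.16, none of which passed.

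**Figure D3:**
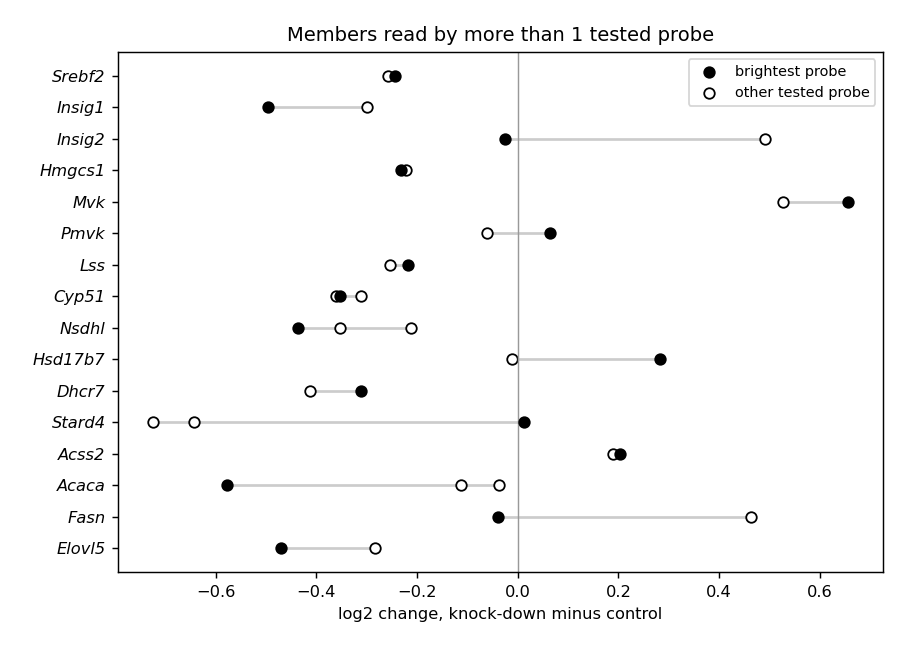
Log2 change, knock-down minus control, at each tested probe of the 16 members read by more than 1 (filled, brightest probe; open, other probes). The probes of Cyp51, Nsdhl, Lss and Hmgcs1 lie close together on the lower side, while those of Stard4, Fasn, Insig2 and Acaca lie apart. The open probes of Acaca were dim (processed signals of 17.5 to 35.4).

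The calls of the lipid genes other than Vldlr needed both knock-down samples in the fit. With either left out, the residual spread was that of the controls, and 1 variance served all genes. Without knock-down 1 and without knock-down 2, the latter being the comparison within slide 1, the calls of Scap (adjusted p = 0.231 and 0.488), Me1 (0.305 and 0.288) and Scd1 (0.460 and 0.619) ended, while their changes stayed between 0.97 and 1.10, −1.11 and −1.03, and −0.91 and −0.90. Vldlr kept its call in both (−3.76 and −3.81), but with 1 variance for all genes only the size of a change set a call. That size is limited by background for Vldlr, and without knock-down 1 its only knock-down value was not well above background. These 2 fits are thus no check of its call. Under normexp the calls of Me1 (−0.55, adjusted p = 0.191) and Scd1 (−0.67, 0.0749) ended and Scap passed (1.09), and that of Scd1 also ended with the percentile over bright probes (0.0541). With no filter on dim probes, all 4 calls ended, as did that of Fbl (adjusted p = 0.108 for Fbl and Vldlr).

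**Figure D4:**
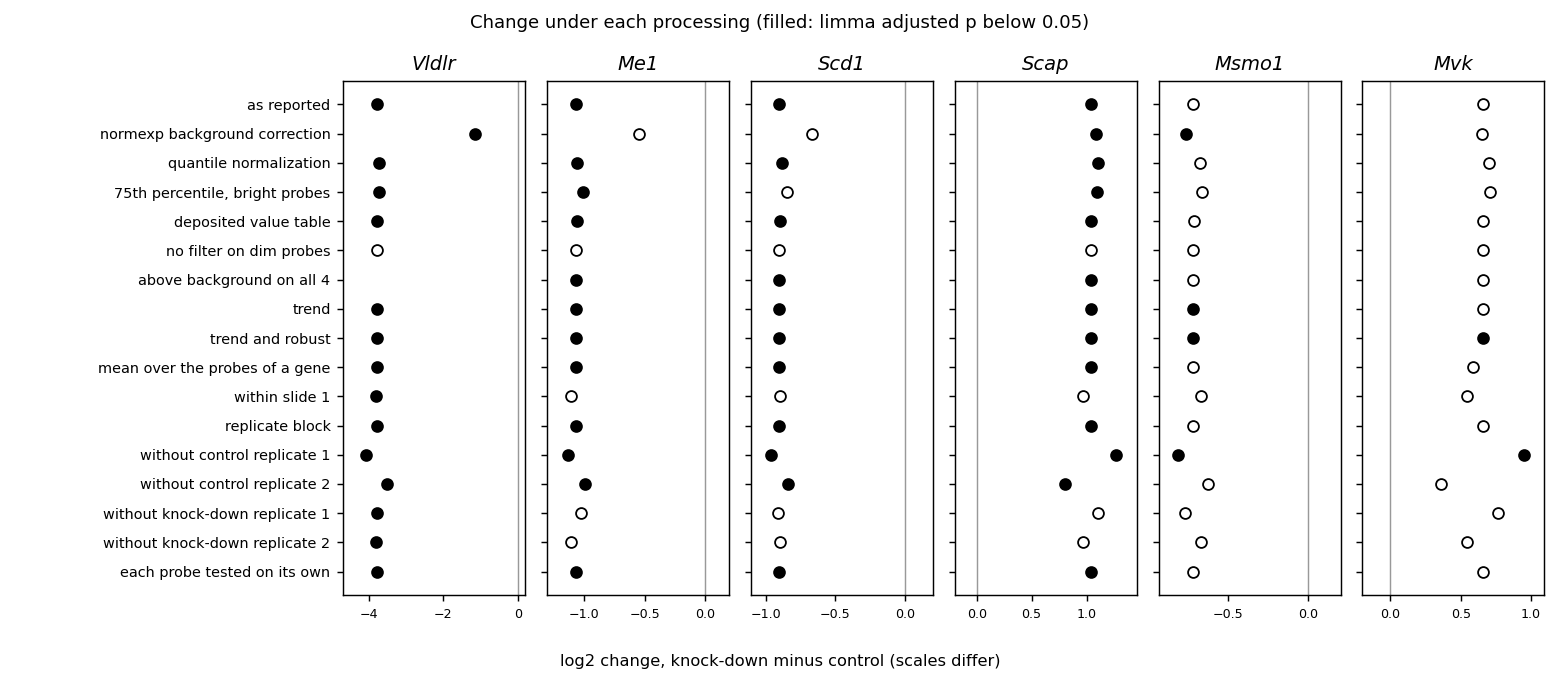
Log2 change, knock-down minus control (x axes, scales differ), of 6 members under each processing (y axis); filled points passed at a limma adjusted p of 0.05 and open points did not. The changes of all 6 members keep their side under every processing drawn, and Vldlr shrinks to −1.16 under normexp. Vldlr has no point where all 4 arrays had to be above background.

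Around the members, 8 lists of other lipid genes held 136 genes, of which 123 were tested, 7 rose (5.69%, against 3.82% of all genes) and 1 fell (0.813%, against 2.58%). With so few calls a list, the counts below describe single genes and not the lists. Among sterol transport, esterification and efflux genes 1 of 18 rose, Abcg1, a sterol exporter and target of liver X receptors (1.09 ± 0.22, limma adjusted p = 0.0184). Among other lipoprotein receptors 1 of 10 rose, Lrp1 (1.27 ± 0.26, adjusted p = 0.0163), a large endocytic receptor, so that Vldlr and Lrp1 were called in opposite directions. Slc27a3, an acyl-CoA synthetase of the fatty acid transport family, rose as 1 of 6 tested fatty acid uptake genes, from 0.92 and 0.26 in the controls to 2.57 and 2.66 in the knock-down samples (2.03 ± 0.27, adjusted p = 0.00173). Cpt1c, the brain-type carnitine palmitoyltransferase, rose as 1 of 21 fatty acid oxidation genes, from 1.61 and 1.09 to 3.01 and 3.09 (1.70 ± 0.25, adjusted p = 0.00321). In both, the knock-down samples lay well above the controls.

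Among glycerolipid synthesis genes 2 of 21 rose, the phosphatidate phosphatase gene Lpin1 (1.21) and the acyltransferase gene Agpat4 (1.20). In the remaining genes of fatty acid synthesis and elongation 1 of 22 rose, Hacd2, a dehydratase of the elongation cycle (1.39, and 0.63 without a call under normexp), and 1 fell, Mid1ip1, whose protein promotes the polymerization of acetyl-CoA carboxylase. Mid1ip1 had levels of 3.71 and 3.37 with Tc and 2.56 and 2.48 without it (−1.02 ± 0.24, adjusted p = 0.0311). None of 14 genes of SREBP processing and its partner factors passed in limma, and the protease gene Mbtps1, its brightest, had a change of −0.03. None of 11 prenyl and ubiquinone branch genes passed either, and the brightest was Rabggtb, a subunit of the enzyme that prenylates Rab proteins (−0.71, adjusted p = 0.100). Within slide 1, 2 of the 7 rises were called, Cpt1c and Slc27a3, and the fall of Mid1ip1 was not.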

How the data were processed

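Total RNA of 4 samples was labelled with Cy3 and hybridised to 1-colour Agilent arrays. Per the file headers, the authors read the images with Agilent Feature Extraction 10.7.3.1, and the deposited spot intensity (processed signal) carries no scaling across arrays. A deposited table of log2 values agreed to 0.01 with that signal, shifted by a constant per array, in 99.8% of entries. Its column medians were −3.85 and −3.98 (controls) and −3.94 and −3.91 (knock-down), and the 75th percentile of each column was 0 within 0.01. Its scale is thus log2 relative to the 75th percentile, without centring of probes, in the direction of the signal.

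Here, outlier spots (96 to 138 per array) were left out, spots of a probe were averaged as log2 and each array's 75th percentile was subtracted. No spot was saturated, and precision is limited by how many arrays there are. Probes entered (25077 of 41124) when both arrays of a group, either one, had them well above background. Names came from accessions matched to RefSeq (GRCm38.p6), which named 24342 probes and left 16782 unnamed. Of several probes, the one with the highest mean stood for the gene. Limma 3.58.1 in R 4.3.3 (lmFit, eBayes, two-sided) was fitted over all genes with Benjamini-Hochberg adjustment and a threshold of 0.05, and was tested on simulated data. Changes are knock-down minus control.

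The members, lists and tests were chosen with earlier results of these data known. Per-array values are given for called members, the 6 uncalled members with the largest change and the brightest of each role, and from other lists up to 3 called genes or the brightest; other genes named, such as markers, were named for their calls. Alternatives covered background correction (normexp, offset 50, on the median signal, since the files hold no mean signal), scaling, filters, the prior, probe averaging, the slide, the replicate number and each array left out. Testing each probe on its own was added after seeing the data.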

Additional observations from a re-analysis of the deposited data

How the results depend on the processing

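The median change of the lipid genes stayed between −0.40 and −0.14 under all 16 alternatives. The count that rose (1) was 0 with no filter and within slide 1, 2 with trend and robust (Mvk added), and 0 to 3 leaving out 1 array, where Srebf1 joined Mvk and Scap without control 1. The count that fell (3) was again 3 but of other genes under normexp (Msmo1, Sc5d and Vldlr), 0 with no filter, 1 within slide 1, and 1 to 5 leaving out 1 array, where Acaca and Msmo1 were added without control 1. Beside the counts of 0, 5 members had an unadjusted p under 0.05 in limma with no filter (14.3%, and 9.01% of all genes), 4 within slide 1, which is the fit without knock-down 2 (11.8%, and 7.98% of all genes), and 4 without knock-down 1 (10.3% of all genes). With the replicate block 1 rose and 3 fell, the same 4 genes; the replicate numbers pair nothing in the labels, and the deviations of same-numbered samples had a correlation of 0.003 across genes. Over all genes, 739 rose and 499 fell; the counts were 0 and 0 with no filter (2967 with an unadjusted p under 0.05), 380 and 195 within slide 1, 958 and 788 with the replicate block, 1011 and 811 with a trend in the prior, 1168 and 982 when that was also robust, and 380 to 2379 and 195 to 1801 leaving out 1 array. In the 8 other lists the 7 rises became 0 to 20 and the 1 fall 0 to 15. Fits within slide 1, with the replicate block, under normexp and without either knock-down array used 1 variance for all genes, so only the size of a change set its call; without a control array, the residual spread was that of the knock-down samples.

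Of 34 members 13 turned sign somewhere, none of them called in the fit reported or where it turned. With quantile normalization the changes were 0.051 for Fasn, 0.013 for Fdps, 2.79e-04 for Insig2 and 0.081 for Mbtps1, and with the percentile over bright probes 0.017 for Fasn, 0.0014 for Fdps, 0.030 for Insig2, 0.014 for Elovl6 and 0.030 for Mbtps1. Under normexp Elovl6 had 0.016 and Elf5 0.12, and with the mean over probes Fasn had 0.21, Insig2 0.23 and Stard4 −0.45. Within slide 1 Insig2 had 0.016 and Mvd −0.019. Leaving out 1 array, the changes spanned −0.46 to 0.090 for Ebp, −0.31 to 0.23 for Elovl6, −0.48 to 0.16 for Fads2, −0.32 to 0.24 for Fasn, −0.39 to 0.024 for Fdft1, −0.29 to 0.18 for Fdps, −0.090 to 0.039 for Insig2, −0.50 to 0.061 for Lss, −0.39 to 0.48 for Mvd, −0.19 to 0.32 for Pmvk, −0.51 to 0.020 for Srebf2, −0.19 to 0.21 for Stard4, −0.066 to 0.34 for Tm7sf2 and −0.15 to 0.10 for Mbtps1.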

Other observations

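The 2 controls lay further apart than the 2 knock-down samples in the lipid genes, with a median absolute gap of 0.41 against 0.09 on the log2 scale, and over all genes tested the gaps were 0.39 and 0.12. A gap above 0.4 between the controls was found in 18 of 34 members and between the knock-down samples in 0. Control 2 was the lower by more than 0.4 in 15 members, among them Srebf1, Srebf2, Scap, Insig1, Mvk, Pmvk, Mvd, Fdps, Ebp, Lss and Fasn, and the higher by as much in Vldlr (0.57), Elovl6 (0.55) and Hmgcs1 (0.43). This grouping was made after the values were seen.

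At the level of single probes, 1 of 54 tested probes of the members rose and 3 fell, against 3.53% and 2.40% of all 25077 probes. In the knock-down 41 of the 54 were lower, and the share of all probes that were lower was not counted. The median change was −0.22 over the member probes and −0.06 over all probes. Probes of the same gene are not independent. Of 20 probes beside the brightest, 6 had the opposite sign to it, in 5 genes: both other probes of Stard4 and 1 each of Fasn, Insig2, Hsd17b7 and Pmvk.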
